A study of Mus musculus with 15 samples.

Results

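The 10 genes described here encode proteins that set how long messenger RNAs last: the endonuclease Regnase-1 (Zc3h12a) and its relative Zc3h12d, the Roquin proteins (Rc3h1 and Rc3h2), the AU-rich element binders of the tristetraprolin family (Zfp36, Zfp36l1 and Zfp36l2), the AU-rich element binders HuR (Elavl1) and KSRP (Khsrp), and Arid5a. They were chosen by name as members of this functional group, 10 genes of the 55536 that matched GENCODE M21, and all 10 were among the 17366 genes with enough counts to be tested. Their messenger RNA was measured in CD8+ T cells from OT-I mice, a transgenic line in which T cells carry 1 receptor, specific for an ovalbumin peptide. The study had 3 groups of 5 libraries, and the question was how antigen, and antigen with costimulation, changed these transcripts.

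Naive libraries came from OT-I mice (C57BL/6J background) that received no transfer. Ag libraries came from OT-I cells moved into wild-type C57BL/6J recipients that were given the ovalbumin peptide and, per the study's methods, a control rat IgG. In Ag+Costim the peptide came with 2 activating antibodies, anti-OX40 and anti-41BB (anti-CD137), in place of the control. The labels give day 4 for the collection of spleen and lymph nodes, from which the transferred CD8+ T cells were sorted, while the study's methods give a somewhat earlier time. The donor line is Rag1-/- or Rag2-/- in the study's methods, so that its lymphocytes should all carry the transgenic receptor, and the sort relied on a CD45 variant and the receptor chains. Ag and Ag+Costim therefore differ from Naive in transfer as well as in antigen, and these cannot be told apart. Recorded sex was female for libraries 1, 2 and 5 and male for libraries 3 and 4 of every group, and the labels give no age per library.

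Control of messenger RNA decay is a main brake on T cells. Roquin proteins bind stem-loops in 3′ untranslated regions (UTRs) and bring in the CCR4-NOT complex, which shortens poly(A) tails, while Regnase-1 cuts stem-loops of overlapping sets of transcripts, such as those of Icos and Tnf. Both are cleaved by the protease MALT1 after T cell receptor engagement. Proteins of the Zfp36 family bind UAUUUAU elements in cytokine transcripts and also bring in CCR4-NOT, KSRP promotes decay, HuR usually stabilises its targets, and Arid5a protects some Regnase-1 targets.

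Because these proteins read short motifs, and several of them act on transcripts of their own family, the 3′ UTRs of the members were searched. The motifs were the heptamer TATTTAT, the 9-base element TTATTTATT that contains it, and TTCNNNGAA. The last is a loose form, with any bases in the loop, of the core of the hairpin that Roquin proteins bind. Whether a match folds or is bound was not tested. The search used the RNA strand of the most counted coding transcript in GENCODE M21. The sites shown are the TTATTTATT elements of the members that have one, with that element in capitals, 5′ to 3′; where a UTR has several, the first is shown.
Zfp36: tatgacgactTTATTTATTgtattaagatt
Zfp36l1: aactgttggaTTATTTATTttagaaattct
Zfp36l2: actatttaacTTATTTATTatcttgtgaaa
Rc3h1: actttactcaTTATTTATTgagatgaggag
Rc3h2: caaagacattTTATTTATTttactctgtaa
Elavl1: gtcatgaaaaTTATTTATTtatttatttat

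On GRCm38 these windows lie at chr7:28376950-28376979 (minus strand), chr12:80108166-80108195 (minus), chr17:84184913-84184942 (minus), chr1:160970043-160970072 (plus), chr2:37373286-37373315 (minus) and chr8:4285787-4285816 (minus), in that order, and all are in 3′ UTRs. TTATTTATT was present in 6 of 10 members, against 7.57% of the 11951 tested genes with an annotated 3′ UTR. Length matters for such a count. Among genes with a UTR of like length, the element was found in 3.99% for Zfp36 (774 bases), 8.94% for Zfp36l1 (1835 bases), 8.78% for Zfp36l2 (1822 bases), 17.8% for Elavl1 (4218 bases, with 8 copies, most of them overlapping), 21.9% for Rc3h2 (5331 bases) and 26.7% for Rc3h1 (7181 bases). TATTTAT, which includes these sites, occurred in the same number of members (6 of 10, against 28.6% of all), with 3 copies each in Zfp36, Zfp36l1 and Zfp36l2. Among genes with a UTR of like length it was found in 19.2% for Zfp36, 38.4% for Zfp36l1, 38.1% for Zfp36l2, 60.7% for Elavl1, 67.4% for Rc3h2 and 76.7% for Rc3h1, so that in the last 3 its presence is common at that length. Zc3h12a and Khsrp had none of the 3 motifs in this window, and Zc3h12d and Arid5a had TTCNNNGAA alone. TTCNNNGAA was in 7 of 10 members and in 34.7% of all, but the members that hold it have long UTRs. In genes of like length it occurred in 87.8% for Rc3h1 (which had 7 copies), 86.3% for Rc3h2, 76.2% for Elavl1, 63.5% for Arid5a, 57.2% for Zc3h12d, 47.5% for Zfp36l1 and 47.2% for Zfp36l2, and nothing is read from this count.

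For comparison, the textbook target Tnf has 5 overlapping TTATTTATT elements and 1 TTCNNNGAA hairpin core, and Nfkbid, a known Roquin target, has 2 cores close together. They are shown with the motif in capitals. The Tnf sites are at chr17:35199688-35199717 and chr17:35199577-35199606 (minus strand), and the Nfkbid sites at chr7:30428395-30428424 and chr7:30428423-30428452 (plus strand).
Tnf, first TTATTTATT: tttgcacttaTTATTTATTatttatttatt
Tnf, TTCNNNGAA: cagacatgttTTCTGTGAAaacggagctga
Nfkbid, first TTCNNNGAA: tctaggtgatTTCTGTGAAatcgagcccac
Nfkbid, second TTCNNNGAA: acttgattgtTTCTGTGAAacactctagag

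Some libraries must be known before the values. Total counts ranged from 4865952 in Ag 3 to 25280667 in Naive 3, with a median of 14967616. CD8 T cell markers summed to 4700 to 7570 CPM (counts scaled to a common library total) in Naive, 3930 to 7110 CPM in Ag and 4060 to 5060 CPM in Ag+Costim. B cell markers summed to 118, 325 and 136 CPM in Ag 1, Ag 3 and Ag 4, against 12.7 to 29 CPM in the other 12 libraries, Ag 2 (16.7 CPM) and Ag 5 (20.5 CPM) among them. Ag 3 also held red cell transcripts (705 CPM summed, against 2.44 to 82.2 elsewhere), and Naive 5 held the most myeloid transcripts (613 CPM summed, S100a8 at 433 CPM). Myeloid sums were 13.8 to 138 CPM in the other Naive libraries, 53.6 to 157 CPM in Ag and 68.4 to 156 CPM in Ag+Costim. Ag 2 and Ag 5 were prepared from recorded input amounts of 1.4 and 1.8, against 7 to 10 for all others, in a unit the table does not give. All Naive libraries were in lane 3, all Ag libraries in lane 2, and Ag+Costim libraries in lane 2 (1 to 3) or lane 3 (4 and 5), so lane and group cannot be told apart between Ag and Naive. In bulk RNA, fewer cells of a type and less RNA per cell cannot be told apart. Libraries are given in the order 1 to 5 of each group, and the study's methods treat each as a biological replicate.

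The main result was in Ag+Costim vs Naive. Transcripts of 6 of the 10 decay regulators were lower in Ag+Costim cells, and none was higher: both Roquins, all 3 Zfp36 family members and Arid5a. Folds ran from 1.74 (Zfp36l2) to 3.36 (Zfp36). In edgeR's quasi-likelihood test with a false discovery rate (FDR) under 0.05 over all 17366 genes, 44.7% of all genes were called in this comparison, 23.6% lower and 21.0% higher, so the count called (6 of 10) was near the background and the share lower was above it. The median log2 fold change was -0.82 over the members and -0.08 over all genes tested. CD8 T cell markers moved the same way: 3 of 6 were lower (Cd8b1, -0.72, Cd3g, -0.61, and Cd8a, -0.54) and none higher, with a median of -0.49, and their part in the members' values was not tested.

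**Figure D1:**
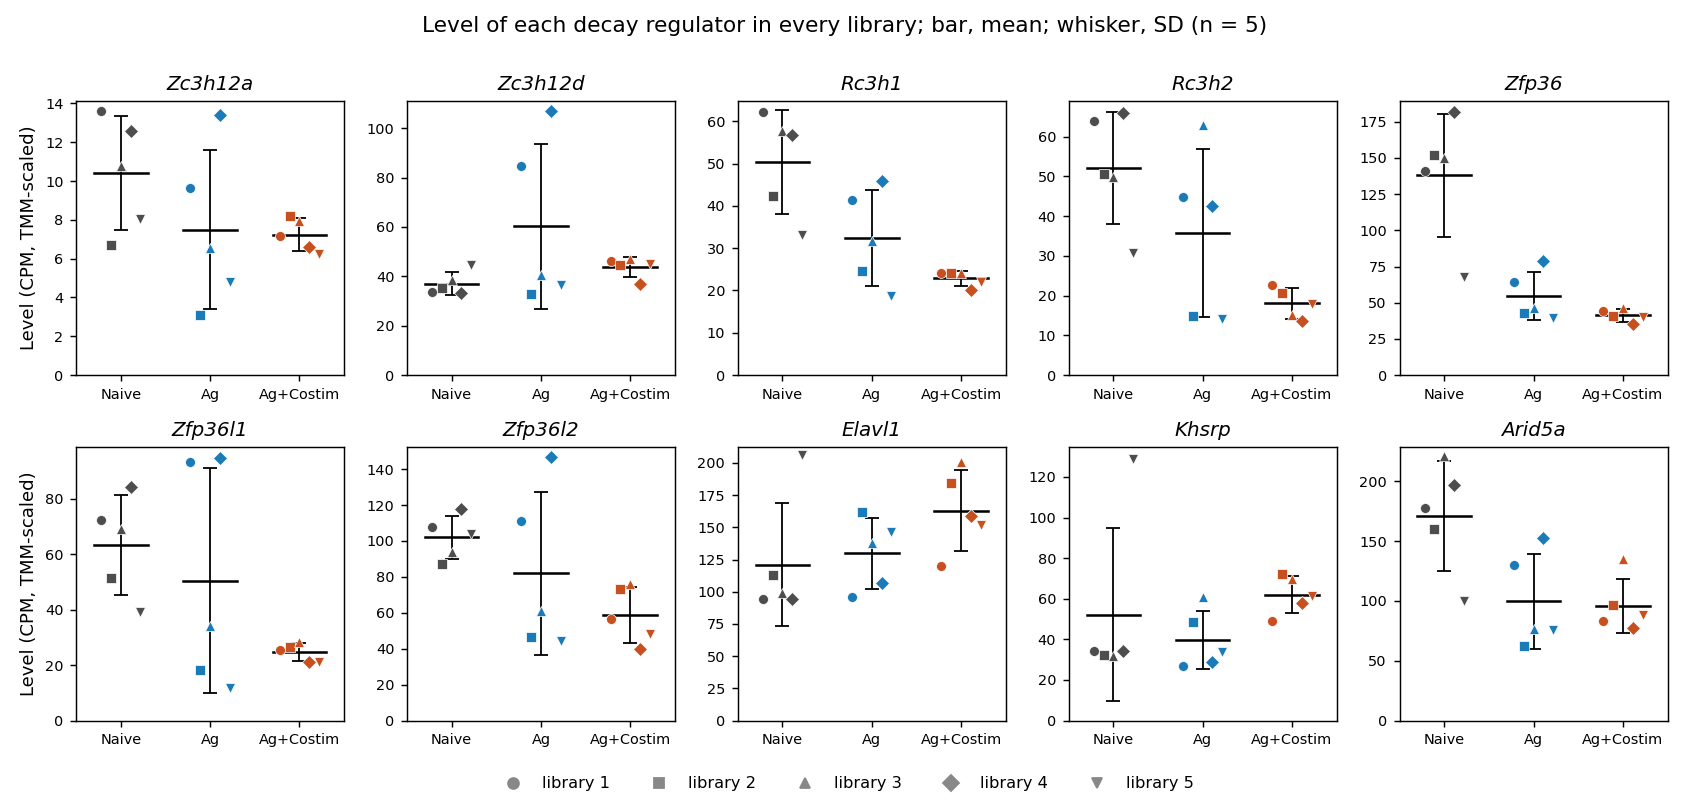
Level of each of the 10 genes (CPM, linear axis from 0) in the 15 libraries, by group; points are libraries (marker shape gives the library number), bars the mean and whiskers the SD of 5. Zfp36 was between 35.1 and 46.4 CPM in Ag+Costim and between 67.8 and 182 CPM in Naive, while Ag libraries spread widely for Zfp36l1 (11.8 to 94.6 CPM).

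In the tristetraprolin family all 3 members were lower in Ag+Costim than in Naive. Zfp36 (tristetraprolin itself, chr7:28376784-28380253, minus strand) was 141, 152, 150, 182 and 67.8 CPM in Naive, 64.3, 43.1, 46.4, 79.1 and 39.3 CPM in Ag, and 44.1, 40.6, 46.4, 35.1 and 40 CPM in Ag+Costim. Every Ag+Costim library was below every Naive library, and the Naive low value was Naive 5. The log2 fold change was -1.75 ± 0.24 (SE) against Naive (FDR = 0.00128).

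Zfp36l1 (chr12:80107754-80113013, minus strand), which with Zfp36l2 restrains lymphocyte proliferation and differentiation, was 72.2, 51.4, 69, 84.4 and 39.2 CPM in Naive, 93.2, 18.3, 34.2, 94.6 and 11.8 CPM in Ag, and 25.6, 26.6, 28.5, 21.2 and 21.3 CPM in Ag+Costim. The Ag group spans both others, with Ag 1 and Ag 4 above every Naive library and Ag 2 and Ag 5 below every Ag+Costim library. Its log2 fold change in Ag+Costim vs Naive was -1.36 ± 0.47 (SE; FDR = 0.0324). A gene on the other strand, Gm26669, covers 55.9% of the exon bases of Zfp36l1, and the library kit does not mark strand, so their reads cannot be told apart by strand; Gm26669 was given at most 1.73 CPM in any library.

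Zfp36l2 (chr17:84183931-84187947, minus strand) was 108, 86.9, 93.7, 118 and 104 CPM in Naive, 111, 46.4, 61.2, 147 and 44.1 CPM in Ag, and 56.8, 73, 75.8, 40 and 48.2 CPM in Ag+Costim. Naive and Ag+Costim again did not overlap. The difference was the smallest of the family, at -0.80 ± 0.31 log2 (SE; FDR = 0.0468), close to the threshold.

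Both Roquin transcripts were lower as well. Rc3h1 (Roquin-1, chr1:160906418-160974978, plus strand) was 62.2, 42.3, 57.7, 56.8 and 33.1 CPM in Naive, 41.5, 24.6, 31.6, 45.8 and 18.6 CPM in Ag, and 24.1, 24.1, 24.1, 20.2 and 22 CPM in Ag+Costim. Ag+Costim libraries were tightly grouped below all Naive libraries, with a log2 fold change of -1.14 ± 0.23 (SE; FDR = 0.00478). Rc3h2 (Roquin-2, chr2:37370069-37422903, minus strand), its partly redundant paralogue, was 63.8, 50.7, 49.8, 66 and 30.7 CPM in Naive, 44.8, 14.8, 62.9, 42.5 and 14 CPM in Ag, and 22.7, 20.6, 15, 13.6 and 17.9 CPM in Ag+Costim. Here too Naive and Ag+Costim did not overlap, and Ag 2 and Ag 5 were the low libraries of the Ag group. The log2 fold change was -1.54 ± 0.37 (SE; FDR = 0.00932).

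Arid5a (chr1:36307733-36324029, plus strand) was 178, 160, 221, 197 and 99.9 CPM in Naive, 130, 62.4, 76.2, 153 and 76.1 CPM in Ag, and 83.3, 96.4, 135, 77.2 and 88.5 CPM in Ag+Costim. The groups overlapped, because Naive 5 was below Ag+Costim 3. The log2 fold change in Ag+Costim vs Naive was -0.84 ± 0.27 (SE; FDR = 0.0249). The CPM of Naive and Ag+Costim did not overlap for 5 of 10 members, where 45.0% of all genes tested did not.

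The other 4 members did not pass the test in Ag+Costim vs Naive. Zc3h12a (Regnase-1, chr4:125118423-125127840, minus strand) was low, at 13.6, 6.7, 10.8, 12.6 and 8.04 CPM in Naive, 9.64, 3.1, 6.53, 13.4 and 4.82 CPM in Ag, and 7.16, 8.21, 7.94, 6.62 and 6.26 CPM in Ag+Costim. All 3 groups overlapped, and the log2 fold change of -0.52 had bounds of -1.16 and 0.12 at 2 SE (FDR = 0.19). Zc3h12d (chr10:7832470-7870396, plus strand), a lymphoid relative of Regnase-1, was 33.6, 35.3, 38.6, 33.1 and 44.5 CPM in Naive, 84.5, 32.9, 40.7, 107 and 36.3 CPM in Ag, and 46, 44.4, 47.2, 37 and 45 CPM in Ag+Costim. Its high values were Ag 1 and Ag 4, and Ag+Costim differed from Naive by 0.25 log2, with bounds of -0.31 and 0.81 at 2 SE (FDR = 0.472).

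Elavl1 (chr8:4285382-4325413, minus strand) was 94.1, 113, 98.9, 94.7 and 206 CPM in Naive, 95.6, 162, 138, 107 and 146 CPM in Ag, and 120, 184, 201, 159 and 152 CPM in Ag+Costim. Khsrp (chr17:57021051-57031522, minus strand) was 34.4, 32.2, 31.6, 34.2 and 129 CPM in Naive, 27, 48.4, 60.8, 28.7 and 33.6 CPM in Ag, and 49.2, 72.3, 69.6, 57.7 and 61.5 CPM in Ag+Costim. For both genes 1 Naive library, Naive 5, was above all others, and the remaining 4 Naive libraries were below every Ag+Costim library. With Naive 5 in the fit the log2 fold changes were 0.43 ± 0.23 for Elavl1 (FDR = 0.132) and 0.25 ± 0.38 for Khsrp (FDR = 0.593). Without Naive 5 they were 0.72 (FDR = 0.00569) and 0.92 (FDR = 0.00464), both called higher, and Zfp36l2 was no longer called (FDR = 0.0626), so the count of members called was 7, with 5 lower and 2 higher, among 51% of all genes called. The part of the myeloid transcripts of Naive 5 in these values was not tested.

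**Figure D2:**
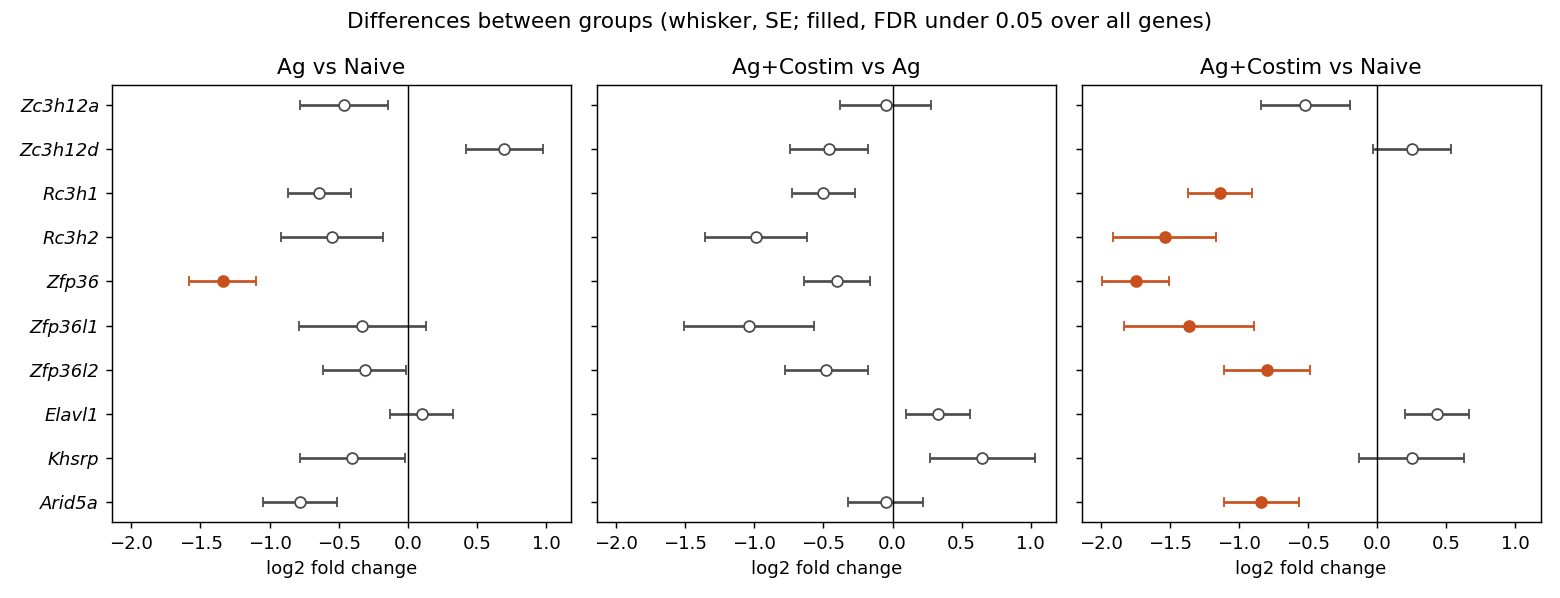
Log2 fold change of each of the 10 genes in the 3 comparisons, from 1 edgeR fit of all 15 libraries; whiskers are the SE and filled points passed an FDR under 0.05 over all genes. In Ag+Costim vs Naive 6 genes passed, between -0.80 and -1.75, in Ag vs Naive Zfp36 passed (-1.34), and in Ag+Costim vs Ag none passed.

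The calls were not equally firm. Rc3h1 and Zfp36 were called under all 19 alternatives tried for this comparison and Rc3h2 under 18, while Arid5a was called under 11, Zfp36l1 under 9 and Zfp36l2 under 5, always with lower values in Ag+Costim. The count of members called was 3 when Naive 1, Naive 3, Naive 4, Ag+Costim 1, Ag+Costim 4 or Ag+Costim 5 was left out, with 21.6% to 31.3% of all genes called in these fits. Within lane 3 alone (5 Naive and 2 Ag+Costim libraries), where 34.7% of all genes were called, so were the same 6 members, with log2 fold changes of -1.88 for Zfp36, -1.73 for Rc3h2, -1.58 for Zfp36l1, -1.26 for Rc3h1, -1.21 for Zfp36l2 and -1.05 for Arid5a. With lane as a term in the fit of all libraries, Rc3h1 and Zfp36 were called (5.43% of all genes were), and Rc3h2 (FDR = 0.0604), Zfp36l1 (FDR = 0.106), Zfp36l2 (FDR = 0.0663) and Arid5a (FDR = 0.0708) were not.

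In Ag vs Naive, which asks what transfer and antigen alone did, Zfp36 was the single member called. It was 2.54-fold lower in Ag, with a log2 fold change of -1.34 ± 0.24 (SE; FDR = 0.0106). Of all genes, 6.71% were called, 3.66% lower. Zfp36 levels in Ag and Naive overlapped through Naive 5 alone, which lay below Ag 4. No member was without overlap, against 3.85% of all genes. Lane could not be told apart from group, and with a lane term that rests on the Ag+Costim libraries the FDR of Zfp36 was 0.565, with 0 genes called of all tested by edgeR (1285 at an unadjusted p under 0.05). Zfp36 was called under 17 of 19 alternatives. The count of members called was 3 without Naive 5 and 3 without Ag 4, where the share of all genes called was also higher, at 21.5% and 11%.

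The rest of the members did not pass in this comparison. Rc3h1 (-0.64 ± 0.23 SE, FDR = 0.0957), Arid5a (-0.78 ± 0.27, FDR = 0.0844) and Zc3h12d (0.70 ± 0.28, FDR = 0.123) were nearest to the threshold. Zc3h12a (-0.46), Rc3h2 (-0.55), Zfp36l1 (-0.33), Zfp36l2 (-0.31), Khsrp (-0.40) and Elavl1 (0.10) had FDR values between 0.309 and 0.795. The Ag libraries were split, and this was not particular to the members. On principal component 1 of all genes tested, the axis of widest spread, Ag 2 and Ag 5 were at 87.8 and 109. The Ag+Costim libraries were at 67.8 to 92.1 on it. Naive libraries were at -113 to -74.3, with Naive 5 at 2.03, and Ag 1, Ag 3 and Ag 4 at -75.7, -69.4 and -56.8. Of the 6 genes lower in Ag+Costim, Ag 4 was at or above the lowest Naive library for 6 and Ag 1 for 5, whereas Ag 5 was at or below the highest Ag+Costim library for 6 and Ag 2 for 5.

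Ag 1, Ag 3 and Ag 4 are also the libraries with B cell transcripts. Without them, 7 of 10 members were called lower in Ag vs Naive (all but Zc3h12d, Elavl1 and Khsrp), with 54.7% of all genes called, on the 2 Ag libraries of low recorded input. The part of B cell transcripts, input amount or response to antigen in this difference among Ag libraries was not tested.

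Ag+Costim vs Ag asks what costimulation added to antigen. No member passed in edgeR, where 3 (Rc3h1, Rc3h2 and Zfp36l1) had an unadjusted p under 0.05, as did 4647 of all 17366 genes. Of all genes edgeR called 0.0346%. DESeq2 called 0 members and 14.6% of all genes. Limma voom with library quality weights, which gives variable libraries less influence, called all 10 members along with 64.5% of all genes. Levels did not overlap between these groups for 6.33% of all genes, with no member among them. The estimates were -0.99 for Rc3h2 (bounds at 2 SE of -1.73 and -0.25), -1.04 for Zfp36l1 (-1.98 and -0.10), -0.50 for Rc3h1 (-0.96 and -0.04), -0.48 for Zfp36l2 (-1.08 and 0.12), -0.40 for Zfp36 (-0.88 and 0.08), -0.46 for Zc3h12d (-1.02 and 0.10), 0.33 for Elavl1 (-0.13 and 0.79) and 0.65 for Khsrp (-0.11 and 1.41). Zc3h12a and Arid5a were both at -0.05, with bounds of -0.71 and 0.61 and of -0.59 and 0.49.

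These values rest on which Ag libraries are in the group. Leaving out Ag 5 gave 3 members called lower (Rc3h1, Rc3h2 and Zfp36l1) with 19.7% of all genes called, and leaving out Ag 2 gave 1 (Rc3h2) with 14.8%. Without Ag 1, Ag 3 and Ag 4, in contrast, edgeR called 0 members and 1.36% of all genes. In that fit 3 members and 3937 of all genes had an unadjusted p under 0.05, and Zfp36l1 was higher in Ag+Costim by 0.71 log2 (FDR = 0.17). The 3 comparisons share libraries, so their values are not independent of each other.

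Levels of different genes were compared per kilobase of exon, taken over the merged exons of all annotated transcripts. That length was 19624 bases for Rc3h2, 12540 for Arid5a, 11308 for Rc3h1 and 2882 for Zc3h12a. Annotated exons without reads lower such a value, so the order depends on the annotation. Before this division Rc3h2 and Rc3h1 had Naive means of 52.2 and 50.4 CPM. In Naive cells the order of means ran from Zfp36 (39.9 ± 12.2 CPM per kilobase, SD, n = 5), Zfp36l2 (28.9 ± 3.43) and Zfp36l1 (21.2 ± 5.98) through Arid5a (13.7), Khsrp (12.1), Elavl1 (11.7) and Zc3h12d (9.05) to Rc3h1 (4.46), Zc3h12a (3.59) and Rc3h2 (2.66). Each gene overlapped with the next in this order except Zc3h12d and Rc3h1. In Ag+Costim the order began with Zfp36l2 (16.6 ± 4.38), Elavl1 (15.8 ± 3) and Khsrp (14.4 ± 2.15), followed by Zfp36 (11.9 ± 1.24), Zc3h12d (10.7), Zfp36l1 (8.23 ± 1.1) and Arid5a (7.66). Zc3h12a (2.51), Rc3h1 (2.02) and Rc3h2 (0.915) were last, below Arid5a and without overlap among themselves. The order in Ag was led by Zfp36l2 (23.2 ± 12.9), Zfp36l1 (16.9 ± 13.6) and Zfp36 (15.7 ± 4.84), with every neighbour overlapping except Arid5a and Rc3h1.

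Ratios of paralogues within a library leave out scaling between libraries. Exon lengths shift such a ratio alike in all libraries, so its sign also depends on the annotation. The log2 ratio of Zc3h12a to Zc3h12d, per kilobase, was -0.80, -1.89, -1.33, -0.88 and -1.96 in the Naive libraries. It was -2.63, -2.90, -2.13, -2.49 and -2.41 in the Ag libraries and -2.18, -1.93, -2.07, -1.98 and -2.34 with costimulation. The ratio was therefore lower in every Ag library than in any Naive library, with -2.13 and -1.96 the nearest values. Neither gene was called on its own, the ratio was not tested, and how often other gene pairs separate in this way was not counted. High Zc3h12d in Ag 1 and Ag 4 (84.5 and 107 CPM) and low Zc3h12a in Ag 2 and Ag 5 (3.1 and 4.82 CPM) both enter it. Ag 1 and Ag 4 are among the libraries with B cell transcripts, and lane cannot be told apart from group here. Ag+Costim overlapped with Naive through Ag+Costim 2 and Naive 5. The ratio of Rc3h2 to Rc3h1 was -0.76 ± 0.20 (SD, n = 5) in Naive cells, -0.82 ± 0.65 after antigen and -1.17 ± 0.25 with costimulation, and that of Zfp36l1 to Zfp36l2 was -0.49 ± 0.39, -0.76 ± 0.64 and -0.98 ± 0.22 in that order. Both overlapped between all groups.

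**Figure D3:**
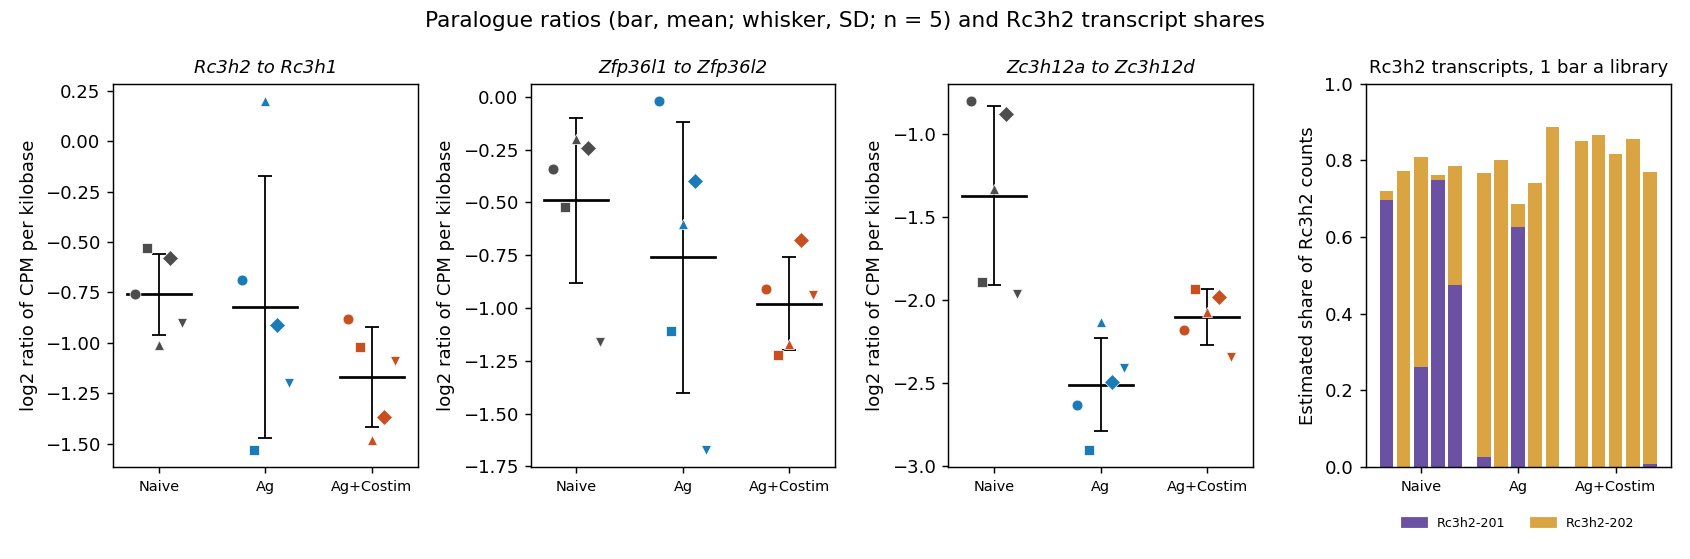
Left 3 panels, log2 ratio of CPM per kilobase of each paralogue pair by group (points, libraries; bar, mean; whisker, SD of 5); right panel, estimated share of the Rc3h2 counts in the transcripts Rc3h2-201 and Rc3h2-202, 1 bar a library in the order 1 to 5. The Zc3h12a to Zc3h12d ratio was between -1.96 and -0.80 in Naive and between -2.90 and -2.13 in Ag, and Rc3h2-201 had a share of at most 0.00778 in Ag+Costim.

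Transcript shares added a difference in Rc3h2. Its counts were divided mainly between the annotated coding transcripts Rc3h2-201 and Rc3h2-202. The Naive libraries gave Rc3h2-201 shares of 0.697, 0, 0.26, 0.748 and 0.476, the Ag libraries 0.0269, 0, 0.626, 0 and 0, and the Ag+Costim libraries 0, 0, 0, 0 and 0.00778, while Rc3h2-202 held 0.763 to 0.866 of the counts in Ag+Costim. Naive libraries disagreed among themselves, with Naive 2 at 0, as in Ag+Costim. Shares are estimates by StringTie from single reads of 50 bases, in which an exact 0 may be a failed estimate.

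By edgeR's transcript usage test (Simes method, FDR over 7501 genes with at least 2 transcripts), 4 members could be tested. Rc3h2 was called in Ag+Costim vs Naive (FDR = 0.00147) and in Ag+Costim vs Ag (FDR = 0.00733), as was Arid5a (FDR = 0.00265 and 0.00132). Of all genes, 2.20% and 1.75% were called in these comparisons, and 1.31% in Ag vs Naive, where 0 of the 4 members passed and 0 had an unadjusted p under 0.05 (limma diffSplice also called 0). For Arid5a the main transcript Arid5a-204 had a share of 0.554 to 0.839 in Naive and 0.11 to 0.871 in Ag+Costim, and Arid5a-205, annotated as a target of nonsense-mediated decay, had 0.052 to 0.162 in Naive and 0 to 0.479 in Ag+Costim, so the groups overlapped for both. For Rc3h2, 1 Ag library, Ag 3, had an Rc3h2-201 share of 0.626, and the other Ag libraries had at most 0.0269. Ag 3 is also the library with the fewest counts (4865952), and a fit of shares without it was not tested. Limma's diffSplice called Rc3h2 alone in Ag+Costim vs Naive (FDR = 0.0242), and neither gene in Ag+Costim vs Ag. When the fit held the 2 groups alone, Arid5a was called in Ag+Costim vs Naive and Rc3h2 was not. Zfp36 and Elavl1 did not pass in any comparison; Elavl1-204 varied from 0 to 0.741 within Ag+Costim. In the remaining 6 members the largest transcript held at least 0.941 of the counts in every library.

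The genes that work with these regulators were taken from lists, described here by counts for Ag+Costim vs Naive. The BTG and TOB proteins, which link RNA-binding proteins to CCR4-NOT, were 5 of 5 lower, in a comparison where 23.6% of all genes were. With a lane term 2 of the 5 were called, and 5.43% of all genes. Btg1, known for keeping T cells quiescent, was 677, 660, 757, 672 and 262 CPM in Naive, 684, 116, 156, 774 and 117 CPM in Ag, and 96.7, 96.2, 145, 50.3 and 70 CPM in Ag+Costim. Naive and Ag+Costim did not overlap, and the log2 fold change was -2.72 ± 0.57 (SE; FDR = 0.00546). Btg2 changed by -1.12 (FDR = 0.0174), and the list median was -0.83. Among Ag libraries, Ag 1 and Ag 4 again had the high values of Btg1, as for Zfp36l1.

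Deadenylase genes went both ways. Of 14 tested, 4 were higher and 2 lower: Cnot9 rose by 1.12 ± 0.29 log2 (SE; FDR = 0.0113) and Cnot11 by 0.76 (FDR = 0.0145), both subunits of CCR4-NOT, and Pan3, the regulatory subunit of the PAN2 deadenylase, fell by 1.80 on the log2 scale (FDR = 0.00398) with Cnot4 falling by 0.88 (FDR = 0.00804). Pan3 was 33.3 to 70.5 CPM in Naive and 13.4 to 16.7 CPM in Ag+Costim. The decay enzymes that act after deadenylation were mostly higher where called. In decapping and 5′-to-3′ decay, 8 of 19 were higher and 1 lower, led by Lsm2 (1.07, FDR = 0.0407) and Lsm5 (1.03, FDR = 0.0297), ring proteins that bind deadenylated ends or, in the nucleus, U6 RNA, while Dcp1a, a decapping cofactor, was lower (-0.60, FDR = 0.0319). In the RNA exosome and SKI complex, 6 of 15 were higher and 1 lower, with Exosc3 (0.94, FDR = 0.013) and Exosc9 (0.86, FDR = 0.0158) highest and Exosc5 lower (-0.40, FDR = 0.0321). List medians were 0.02, 0.13 and 0.41 in these 3 lists. The shares called were 42.9%, 47.4% and 46.7%, near the 44.7% of all genes. Of all genes, 21.0% were higher and 23.6% lower. These counts also rested on the model: with a lane term, 0 genes of these 3 lists were called by edgeR, where DESeq2 called 6, 10 and 8 without that term. Of all genes, 5.43% were called with the lane term and 53% by DESeq2.

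Of 11 partners and upstream regulators, 4 were lower and none higher, with a median of -0.44. That is 36.4% called, below the 44.7% of all genes, and 1 was called with a lane term, where 5.43% of all genes were. Malt1, the protease that cleaves Roquins and Regnase-1, was 156, 113, 131, 154 and 98 CPM in Naive, 72.5, 61, 70.3, 73.9 and 41 CPM in Ag, and 72.7, 70.6, 56.6, 63.2 and 69.5 CPM in Ag+Costim. Both transferred groups were below every Naive library, by -1.04 ± 0.17 log2 in Ag (FDR = 0.00781) and -0.97 ± 0.17 in Ag+Costim (FDR = 0.00278). Zc3h12b, another Regnase family member at low counts, fell by 3.29 on the log2 scale in Ag+Costim (FDR = 0.00583). Mapk14 (p38), whose pathway inactivates tristetraprolin, was lower in both (-0.52 in Ag, FDR = 0.0391, and -0.44 in Ag+Costim, FDR = 0.0235). Of 9 other AU-rich and U-rich element binders tested, Tia1 alone was called, lower by -0.62 (FDR = 0.02), and the list median was -0.02.

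**Figure D4:**
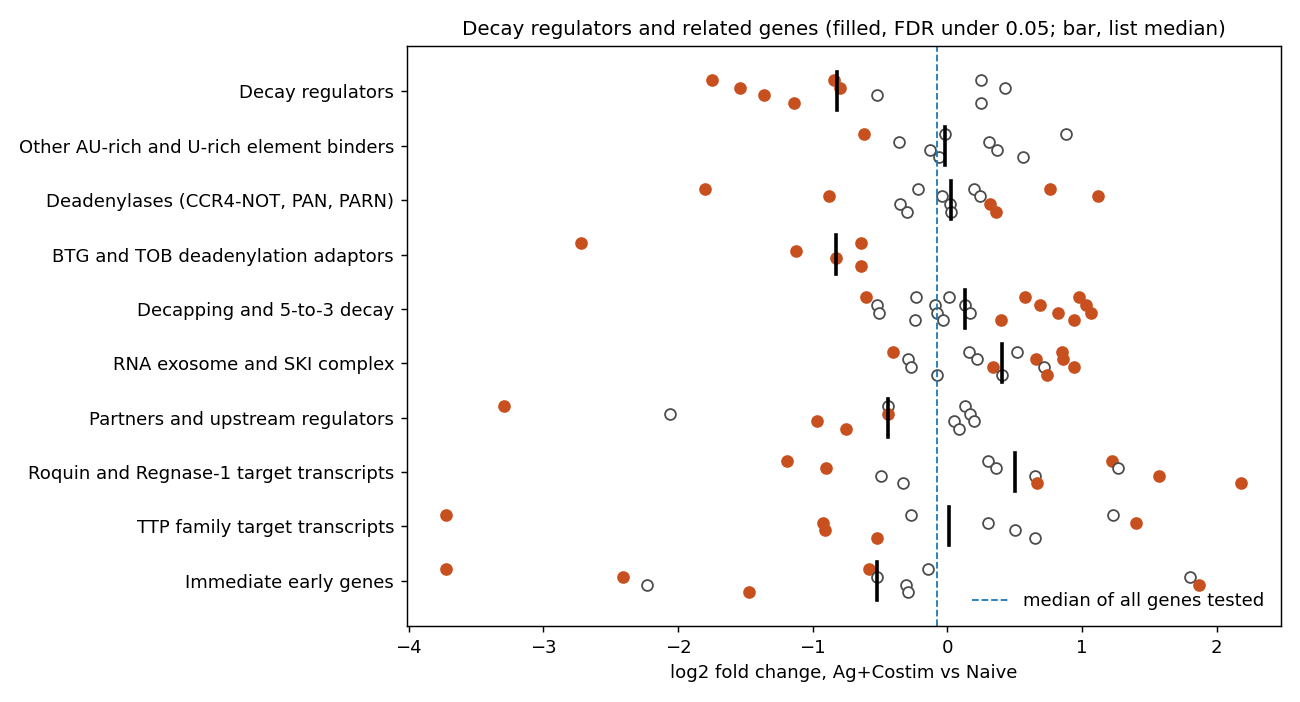
Log2 fold change in Ag+Costim vs Naive of the 10 decay regulators and of 9 lists of related genes, 1 point a gene; filled points passed an FDR under 0.05, bars are list medians and the dashed line is the median of all genes tested (-0.08). The decay regulators (median -0.82) and the BTG and TOB adaptors (-0.83) lie to the left, and the exosome list (0.41) to the right.

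Known target transcripts did not move in 1 direction. Of 12 Roquin and Regnase-1 targets tested in Ag+Costim vs Naive, 4 were higher and 2 lower, with a median of 0.50. The share called (50%) was near that of all genes, and 1 was called with a lane term, where 5.43% of all genes were. Ctla4, an inhibitory receptor, was higher by 2.18 ± 0.73 (SE; FDR = 0.0289) and Irf4, an effector transcription factor, by 1.57 (FDR = 0.0467), but Naive 5 (37.2 and 34.2 CPM) overlapped with Ag+Costim for both. Tnfaip3 (A20) was lower by -0.90 (FDR = 0.0154), and Nfkbid, whose 2 hairpin cores are shown above, by -1.19 ± 0.27 (SE; FDR = 0.00708), at 20.9 to 55.2 CPM in Naive and 13.7 to 17.8 CPM in Ag+Costim. Tnf, with both motifs, stood at 4.42 to 10.4 CPM in Naive, 7.62 to 10.6 CPM in Ag and 6.6 to 10.2 CPM in Ag+Costim, with overlap between all groups. Of 10 targets of the tristetraprolin family tested, 1 was higher (Ifng, 1.4, FDR = 0.0244) and 4 lower, among them Fos (-3.72, FDR = 0.0176) and Notch1 (-0.92, FDR = 0.0174), with a median of 0.01. Of 11 genes in the immediate early list, which also holds heat shock genes, 1 was higher and 4 lower, with a median of -0.52. The higher one was the heat shock gene Hspa1b (1.87, FDR = 0.0442), and the lower ones included Fos and Egr1 (-2.41, FDR = 0.00881). The share called was 45.5% in this list and 50% in the tristetraprolin family targets, against 44.7% of all genes. Hspa1b was 0.928, 3.41, 1.12, 9.6 and 0.973 CPM in Ag+Costim and 0.559 to 1.5 CPM in Naive, so that 3 of 5 libraries lay within the Naive range, and without Ag+Costim 4 its log2 fold change was 0.98 (FDR = 0.179). With a lane term edgeR called 0 genes of the tristetraprolin family targets and of the immediate early list, where DESeq2 without that term called 6 and 7. Of all genes, these fits called 5.43% and 53%.

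In Ag vs Naive the same lists held fewer calls, in a comparison where 6.71% of all genes were called, against 44.7% in Ag+Costim vs Naive. The share called ran from 0% to 40% per list, of 5 to 19 genes tested. With a lane term it was 0 in every list and 0 over all genes. Icos (0.96, FDR = 0.0139), Ctla4 (2.83, FDR = 0.0379) and Batf (0.96, FDR = 0.0387), named here after its values were seen as the remaining called target, were higher among Roquin and Regnase-1 targets. Ifng (1.98, FDR = 0.0222) and Ccl3 (2.13, FDR = 0.0238) were higher and Myc (-1.04, FDR = 0.00781) and Pim1 (-1.28, FDR = 0.0362) lower among tristetraprolin family targets. Tob1 (-0.76, FDR = 0.00614) was the called adaptor, and Ier2 (-0.57, FDR = 0.0389) and Dusp1 (-0.63, FDR = 0.0439) the called immediate early genes. Of 19 alternatives the call was lost in 12 for Mapk14, 11 for Ier2, 10 for Dusp1 and 9 for Ctla4, and in 3 or fewer for Malt1, Myc, Tob1 and Icos. Tob1 was 55.9 to 71.7 CPM in Naive, 32.4 to 39.7 CPM in Ag and 27.1 to 40.5 CPM in Ag+Costim, so that both transferred groups lay below Naive. In the lists of other binders, deadenylases, decapping and exosome genes (9, 14, 19 and 15 tested), edgeR called 0. Of these genes 3, 3, 10 and 3 had an unadjusted p under 0.05, DESeq2 called 2, 0, 2 and 1, and limma voom 2, 2, 3 and 7. Over all 17366 genes, 4980 had an unadjusted p under 0.05, DESeq2 called 16% and limma voom 23.1%. The genes of smallest p in these lists were Fubp1 (-0.43, FDR = 0.0857), Cnot4 (-0.55, FDR = 0.102), Dcps (0.69, FDR = 0.0592) and Skiv2l (-0.43, FDR = 0.0706).

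In Ag+Costim vs Ag no gene of any of the 9 lists was called by edgeR. Between 2 and 7 genes per list (5 to 19 tested) had an unadjusted p under 0.05, DESeq2 called 0 to 3 per list and limma voom 3 to 12. Over all 17366 genes, 4647 had an unadjusted p under 0.05, DESeq2 called 14.6% and limma voom 64.5%. Of the genes reported here, those of smallest p in each list were Btg1 (-2.01, FDR = 0.0807), Zc3h12b (-2.82, FDR = 0.0807), Cnot7 (0.44, FDR = 0.0807), Fubp3 (0.45, FDR = 0.0826), Myc (0.52, FDR = 0.0903), Dis3 (0.86, FDR = 0.0927), Egr2 (-2.86, FDR = 0.0929), Tfrc (0.93, FDR = 0.104) and Edc4 (0.34, FDR = 0.182). Levels did not overlap between the groups for Myc (84.9 to 99 CPM in Ag+Costim and 52 to 68.6 CPM in Ag), Fubp3, Cnot3, Cnot7, Cnot9 and Irf4, none of which passed the test. These were 3 of 14 deadenylases, 1 of 9 other binders, 1 of 12 Roquin and Regnase-1 targets and 1 of 10 tristetraprolin family targets. The remaining lists had none. Of all genes tested, 6.33% did not overlap, and nothing is read from this count.

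Among all 11331 genes with a mean of at least 5 CPM, those with the pattern most like a called member over the 15 libraries were named by the smallest root mean square difference of centred log2 CPM. Rc3h1 was followed most closely by Nr3c1 (0.114), Map4k2 (0.13) and Crebbp (0.131), against its own SD of 0.588. For Rc3h2 they were 9930021J03Rik (0.195), Jmjd1c (0.206) and Mbd5 (0.212), and for Zfp36 they were Cdip1 (0.175), Jakmip1 (0.178) and Tnfrsf26 (0.212). Zfp36l1 was nearest to Sesn3 (0.203), Atp10d (0.214) and Scaper (0.224), Zfp36l2 to Mindy2 (0.19), Trim14 (0.196) and Gbp4 (0.197), and Arid5a to Cyth1 (0.155), Parp10 (0.171) and Ndst2 (0.185). No gene appeared in more than 1 of these sets.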

How the data were processed

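RNA of purified CD8+ T cells was made into libraries with a SMART-Seq v4 kit, which does not mark strand, and Nextera XT, and read as single reads of 50 bases per the labels (the study's methods give longer reads). Per the submitters' processing notes the authors used HISAT2 2.1.0 (mm10), SAMtools 1.9 and StringTie 2.1.0. The deposited gene and transcript tables hold estimated read counts from StringTie, as whole numbers and not normalised. Per the file headers, the core's quality table gives sequenced reads, the percent of reads aligned, lane and input amount, of which reads, lane and input are used here. The FPKM table was not used, since the columns of Ag 1 and Naive 5 in it are identical. The recorded sex comes from the deposited sample sheet.

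Entries matching GENCODE M21 (GRCm38) by identifier were kept; entries named by a number alone (0.0818% of counts) were left out. Counts were fitted in edgeR 4.0.16 (R 4.3.3) with filterByExpr, TMM scaling and a robust quasi-likelihood model over all 15 libraries, 1 coefficient a group, and called at a Benjamini-Hochberg FDR under 0.05 over 17366 genes, two-sided. CPM are scaled by TMM. Shares of transcripts within a gene were tested by diffSpliceDGE of edgeR. DESeq2 1.42.0, limma 3.58.1 and other settings were alternatives. The fits across genes and transcripts were tested on simulated data. Named from each list were the 2 highest and 2 lowest called genes, or the gene of smallest p where none was called. Some listed genes are not reported here and are left out of their lists. The members and lists were chosen with earlier results of these data known. No pair of libraries in a group agreed within counting error (lowest chi-square per degree of freedom 5.62). Precision is limited by totals of 4865952 to 25280667 counts and, more, by the spread between libraries.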

Additional observations from a re-analysis of the deposited data

Results flagged for a closer look

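Over the 10 genes and 3 paralogue ratios in 3 groups, 39 sets of 5 libraries were screened for 1 library far from the other 4, by Dixon's criterion at 0.71, which chance meets in about 1 of 20 sets (1.95 of 39). It was met 3 times. Khsrp was 129 CPM in Naive 5, where the other Naive libraries were between 31.6 and 34.4 CPM. Elavl1 was 206 CPM in Naive 5, against 94.1 to 113 CPM. Zc3h12d was 37 CPM in Ag+Costim 4, against 44.4 to 47.2 CPM. Naive 5 is the library with 613 CPM of myeloid markers, and their part in its Khsrp and Elavl1 values was not tested.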

How the results depend on the processing

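All 6 members lower in Ag+Costim vs Naive kept that direction in all 19 alternatives. Counts of members called there were 3 without a filter on low counts, 2 with lane as a term and 10 with limma voom and quality weights, and 3 to 7 over the 10 fits that left out 1 library each; all genes called were 4158, 943, 13525 and 3892 to 9164. In Ag vs Naive, members called were 2 with DESeq2, 2 with the replicate block, 0 with a lane term, 3 with limma voom, 0 with the libraries of the 2 groups alone, 2 without Ag 3 and Naive 5, 7 without Ag 1, 3 and 4, and 1 to 3 leaving out 1 library. All genes called were 2778 with DESeq2, 208 without the filter, 0 with a lane term, 4020 with limma voom, 6 with the 2 groups alone, 3945 without Ag 3 and Naive 5, 10261 without Ag 1, 3 and 4, and 255 to 3871 leaving out 1 library. In Ag+Costim vs Ag, members called were 10 with limma voom, 1 without Ag 3 and Naive 5 (Khsrp, higher) and 0 to 3 leaving out 1 library. All genes called were 2533 with DESeq2, 3 without the filter, 0 with the replicate block, a lane term, the 2 groups alone or lane 2 alone, 11195 with limma voom, 989 without Ag 3 and Naive 5, 255 without Ag 1, 3 and 4, and 0 to 3573 leaving out 1 library. With library totals in place of TMM the median over all genes in Ag+Costim vs Naive was -0.23 in place of -0.08, and the same count of members (6) was called. The causes were not tested. The last 2 ways of leaving out libraries together were chosen after seeing the data.

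Members with a transcript share call numbered 1 without a filter in Ag vs Naive and 3 (Khsrp added) in Ag+Costim vs Ag, 0 with limma diffSplice and 0 with the 2 groups alone in Ag+Costim vs Ag, and 1 with each of these in Ag+Costim vs Naive.

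Direction turned as follows (log2 fold change). In Ag vs Naive, Elavl1 was -0.02 with a lane term and -0.02 to 0.38 leaving out 1 library; Zfp36l1 was 0.13 and Zfp36l2 0.08 with limma voom; Khsrp was 0.11 without Ag 3 and Naive 5 and -0.60 to 0.26 leaving out 1 library; Zc3h12d was -0.09 without Ag 1, 3 and 4. In Ag+Costim vs Ag, Zc3h12a was 0.19 without the filter, 0.11 with the replicate block, 0.05 with a lane term, 0.06 in lane 2 alone and -0.18 to 0.28 leaving out 1 library, and Arid5a was 0.18 without the filter, 0.07 with a lane term, 0.09 in lane 2 alone and -0.19 to 0.17 leaving out 1 library. Without Ag 1, 3 and 4, Zc3h12a was 0.86, Zc3h12d 0.34, Rc3h1 0.08, Rc3h2 0.31, Zfp36l1 0.71, Zfp36l2 0.37, Arid5a 0.47 and Egr2 0.07 in that comparison.

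Whether replicate numbers pair the libraries cannot be decided from correlations alone, and recorded sex follows the number alike in the 3 groups. Deviations of same-numbered libraries correlated above 0.1 in 3, 1 and 1 of 5 pairs in the 3 comparisons. They correlated with their own number best in 2, 1 and 2. In Ag vs Naive these correlations ran from -0.324 to 0.47. With the replicate block 1660, 0 and 7833 genes were called.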
